A study of Mus musculus with 30 samples.

Results

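Iron and heme handling was described through 8 genes of the 19935 genes with a cluster of their own on the arrays: Slc40a1, Tfrc, Slc11a2, Steap3, Fth1, Aco1, Ireb2 and Flvcr1. The genes were chosen by name and not by a cutoff on measured values, but with earlier results of these data known. Each was read from the transcript cluster (the probes that together report 1 transcript) that carried this gene symbol alone, and all 8 genes had one. Only Flvcr1 had several such clusters, and the one with the highest mean over all 30 arrays was used. The arrays came from NgR, a Nanog rescue clone of mouse embryonic stem cells listed as AINV15_Nanog_Rescue Clone, made from rtTA-expressing cells spelled Aniv15 in the labels and kept on primary mouse embryonic fibroblasts. All groups are of this 1 clone, in which Nanog is expressed in the presence of doxycycline (Dox, 1 ug/ml). The 10 groups of 3 arrays were day 0 with Dox, days 1, 3 and 5 of Dox withdrawal, and, from each of these 3 days, cells given a 12 h Dox pulse and control cells left without Dox for the same 12 h. No arrays of cells held on Dox over the same days were analysed here, so withdrawal and time in culture cannot be told apart, and neither can an effect of Dox and one of Nanog. The labels do not say that replicates were separate cultures, so p-values measure the spread between these arrays, which may be technical.

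Cells take up iron bound to transferrin through the transferrin receptor Tfrc. In the endosome the iron is reduced by Steap3 and carried into the cytosol by the divalent metal transporter Slc11a2. Iron that is not used is held in ferritin, whose heavy chain is Fth1, or leaves the cell through ferroportin, Slc40a1, the known cellular iron exporter of mammals. The iron regulatory proteins encoded by Aco1 and Ireb2 bind iron-responsive elements of transcripts when iron is scarce, which stabilises the Tfrc transcript and blocks translation of ferritin and ferroportin. Flvcr1 is known as an exporter of heme. An array of RNA shows none of the steps that act on translation or on protein.

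RefSeq promoter windows on GRCm38.p6, of 300 bases from 250 before to 50 after a transcript start, were at hand for 6 of the 8 genes, and Slc40a1 and Slc11a2 had no entry. The windows below are of the 3 genes with entries whose transcripts moved most clearly with withdrawal, and each is printed along the strand of its gene. They were searched on both strands for ACGTG, the core of the hypoxia response element, for CACGTG, an E-box that contains it, and for TGACNNNGC, the core of the antioxidant response element. Capitals mark a match. The Tfrc window lies at chr16:32608872-32609171 on the plus strand, the Ireb2 window at chr9:54863505-54863804 on the plus strand and the Flvcr1 window at chr1:191026141-191026440 on the minus strand.
Tfrc: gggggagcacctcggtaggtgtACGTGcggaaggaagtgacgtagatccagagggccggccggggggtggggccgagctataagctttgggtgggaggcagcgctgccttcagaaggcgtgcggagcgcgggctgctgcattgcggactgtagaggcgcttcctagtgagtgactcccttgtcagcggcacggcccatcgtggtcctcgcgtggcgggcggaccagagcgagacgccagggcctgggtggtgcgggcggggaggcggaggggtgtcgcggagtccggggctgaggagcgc
Ireb2: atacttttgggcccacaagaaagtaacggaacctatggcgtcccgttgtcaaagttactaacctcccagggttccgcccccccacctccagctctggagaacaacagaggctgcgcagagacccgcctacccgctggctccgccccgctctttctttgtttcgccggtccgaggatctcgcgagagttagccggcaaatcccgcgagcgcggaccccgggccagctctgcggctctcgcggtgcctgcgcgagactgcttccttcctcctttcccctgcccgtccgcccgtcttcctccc
Flvcr1: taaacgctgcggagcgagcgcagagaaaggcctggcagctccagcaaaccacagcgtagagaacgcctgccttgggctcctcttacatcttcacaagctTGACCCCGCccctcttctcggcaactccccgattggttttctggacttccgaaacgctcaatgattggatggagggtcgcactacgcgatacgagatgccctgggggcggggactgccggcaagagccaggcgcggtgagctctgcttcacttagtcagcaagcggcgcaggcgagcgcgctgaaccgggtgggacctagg
The Tfrc window held 1 ACGTG, whose first base lies at −228 relative to the start. An overlapping second Tfrc window at chr16:32608646-32608945 held the same letters, at −2 relative to its own start. ACGTG occurred in 19.6% of all 32851 windows of this length. The Flvcr1 window held 1 TGACNNNGC at −151, a match found in 12.4% of all windows. No member window held CACGTG (7.15% of all windows), and the windows of Ireb2, Aco1, Fth1 and Steap3 held none of the 3. A match is a string of letters and was not tested as a binding site.

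The 8 genes differed widely in how far their transcripts moved over the 10 groups. Values are log2 signals as deposited, so a difference of 1 is a doubling. Slc40a1 spanned 2.79 between its lowest and highest group mean, a 6.89-fold range, and 99.9% of the 23385 tested clusters spanned less. Tfrc spanned 0.80, and 88.7% of the clusters spanned less. The other members spanned little: 0.43 for Slc11a2, 0.37 for Fth1, 0.34 for Aco1, 0.33 for Ireb2, 0.31 for Flvcr1 and 0.28 for Steap3. For these 6 genes between 22.5% and 58.8% of the clusters spanned less, so their movement was ordinary for this experiment. The SD of replicates, pooled over groups, lay between 0.056 (Fth1) and 0.099 (Slc40a1). Signals of different genes come from different probes and are not set against each other.

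**Figure D1:**
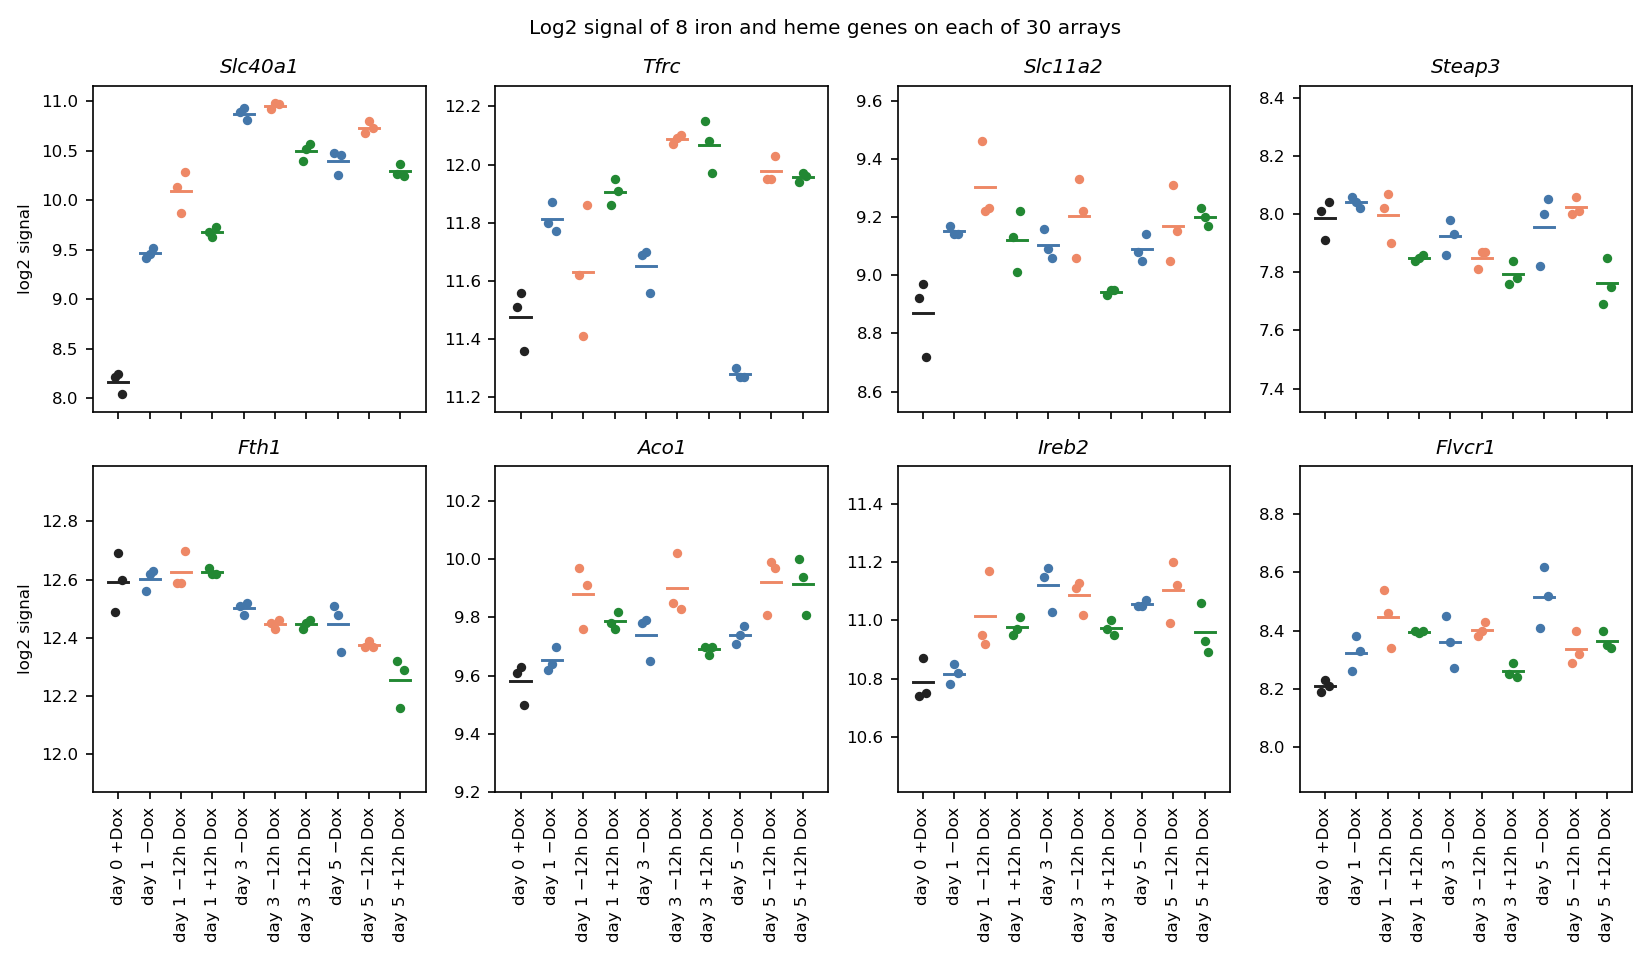
Log2 signal (vertical axes, each of its own level, the 7 narrower panels of about the same span) of the 8 genes on each of the 30 arrays, by group; points are arrays and bars are means of 3. Slc40a1 rises from day 0, where its 3 arrays lie between 8.04 and 8.25, to the day 3 groups, while the other genes stay within 0.80 between group means.

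The transcript of the iron exporter Slc40a1 (cluster 10354374) rose at every day of withdrawal. At day 0 its signal was 8.22, 8.25 and 8.04 in replicates 1, 2 and 3, with a mean of 8.17 ± 0.11 (SD, n = 3). At day 1 of withdrawal the arrays read 9.42, 9.46 and 9.52, at day 3 they read 10.89, 10.93 and 10.81, and at day 5 they read 10.48, 10.26 and 10.46. No array of a withdrawal day overlapped day 0, and none of day 5 reached the lowest array of day 3. Such separation was common: arrays of 25.3%, 45.7% and 54.4% of all tested clusters did not overlap day 0 at days 1, 3 and 5. Between days 3 and 5 the share was 28.7%. Changes are differences of log2 means ± standard error, and adjusted p-values come from limma after Benjamini-Hochberg adjustment over the 23385 clusters, where a gene is called at an adjusted p under 0.05. Against day 0, Slc40a1 rose by 1.29 ± 0.083 at day 1 (2.45-fold, adjusted p = 7.34e-11), by 2.71 at day 3 (6.53-fold, adjusted p = 1.03e-18) and by 2.23 at day 5 (4.69-fold, adjusted p = 3.45e-17). The course was not monotonic. Between days 1 and 3 the transcript rose by a further 1.41 (adjusted p = 3.99e-12). Between days 3 and 5 it fell by 0.48 (adjusted p = 0.000199). The withdrawal changes share the day 0 arrays.

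A 12 h return of Dox left Slc40a1 lower than in cells kept without it for the same time, on each of the 3 days. On day 1 the pulsed arrays read 9.68, 9.63 and 9.73 and the controls 10.14, 9.87 and 10.29. On day 3 they read 10.40, 10.52 and 10.57 against 10.92, 10.98 and 10.97, and on day 5 they read 10.27, 10.37 and 10.25 against 10.68, 10.80 and 10.73. Pulsed and control arrays did not overlap on any day, and every pulsed array stayed well above all arrays of day 0. Of all tested clusters, 19.7%, 24.5% and 21% did not overlap between pulse and control on days 1, 3 and 5. Slc40a1 fell by 0.41 on day 1 (95% interval −0.58 to −0.24, adjusted p = 0.00502), by 0.46 on day 3 (−0.63 to −0.29, adjusted p = 0.0281) and by 0.44 on day 5 (−0.61 to −0.27, adjusted p = 0.00196). The average over the 3 days was −0.44 ± 0.048 (adjusted p = 1.81e-06). The effects on 2 days differed by at most 0.05, with intervals such as −0.29 to 0.19 for day 3 minus day 1, and no such difference was called. The call on day 3 was lost when any 1 of its 6 arrays was left out (adjusted p = 0.0758 to 0.219, lost furthest without control replicate 2), although the change stayed between −0.50 and −0.41. Without the 4 arrays of widest spread, which all belong to 12 h control groups, the changes of Slc40a1 were −0.32, −0.45 and −0.39 with adjusted p = 0.0287, 0.0751 and 0.169, and the average was −0.38 (adjusted p = 0.000412).

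The control cells themselves went on changing over those 12 h. Slc40a1 rose by 0.63 ± 0.083 from the day 1 withdrawal arrays to their 12 h controls (adjusted p = 0.000112) and by 0.34 on day 5 (adjusted p = 0.0229), while the change on day 3 was 0.08 (adjusted p = 0.80). Pulsed means lay above the withdrawal arrays of the same day on day 1 (9.68 against 9.47) and below them on day 3 (10.50 against 10.88). On day 5 the pulsed arrays, from 10.25 to 10.37, overlapped the withdrawal arrays, from 10.26 to 10.48. The pulse and the 12 h comparison share the control arrays. The call of 0.34 on day 5 was lost without withdrawal replicate 2 (0.27, adjusted p = 0.153), without withdrawal replicate 3 (adjusted p = 0.0534), without control replicate 2 (adjusted p = 0.0831) or without control replicate 3 (adjusted p = 0.0976). In the order of group means, the 12 h controls and withdrawal arrays of day 3 stood highest (10.96 and 10.88, overlapping), followed by the day 5 controls (10.74). The day 3 pulse, day 5 withdrawal, day 5 pulse and day 1 control groups came next and overlapped neighbour by neighbour, the day 1 controls (9.87 to 10.29) reaching into both day 5 groups. The day 1 pulse, day 1 withdrawal and day 0 groups followed without overlap.

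Tfrc (cluster 10435075), the receptor for iron-loaded transferrin, followed no such course. Its arrays read 11.51, 11.56 and 11.36 at day 0, 11.80, 11.87 and 11.77 at day 1 of withdrawal, 11.69, 11.70 and 11.56 at day 3, and 11.30, 11.27 and 11.27 at day 5. Day 1 lay above day 0 and day 5 below it without overlap, and day 3 reached into the range of day 0. Tfrc rose by 0.34 ± 0.079 at day 1 (adjusted p = 0.00732) and fell by 0.37 between days 3 and 5 (adjusted p = 0.00193). Against day 0 the change was 0.17 at day 3 (adjusted p = 0.0935) and −0.19 at day 5 (adjusted p = 0.0519). The rise at day 1 was 0.28 with adjusted p = 0.0726 without day 0 replicate 3, the lowest array of day 0. The day 5 value passed the threshold without that array (−0.25, adjusted p = 0.0244), and it also passed in 6 of the 10 alternatives, which ran from −0.26 with median centring (adjusted p = 0.0105) to −0.03 with quantile normalization (adjusted p = 0.745). The day 3 value passed in 4 of the 10, which ran from 0.10 with median centring (adjusted p = 0.355) to 0.31 with quantile normalization (adjusted p = 0.000868).

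The larger movement of Tfrc came in the 12 h after days 3 and 5, with and without Dox. The controls read 12.07, 12.09 and 12.10 on day 3 and 11.95, 11.95 and 12.03 on day 5. The pulsed arrays read 12.15, 12.08 and 11.97 on day 3 and 11.94, 11.97 and 11.96 on day 5. All 12 of these arrays lay above every array of day 0 and of the 3 withdrawal days. From the withdrawal arrays to the 12 h controls, Tfrc rose by 0.44 ± 0.079 on day 3 (1.36-fold, adjusted p = 0.00229) and by 0.69 on day 5 (1.61-fold, adjusted p = 1.15e-05). The pulse effect was −0.02 on both days, with intervals of −0.18 to 0.14 and −0.18 to 0.15 (adjusted p = 0.931 and 0.893). On day 5 the withdrawal arrays had been the lowest of all 30, so Tfrc went from its lowest to near its highest level within 12 h.

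On day 1 Tfrc behaved otherwise, and the arrays of 1 group spread widely. The 12 h controls read 11.62, 11.41 and 11.86 (SD 0.23) and the pulsed arrays 11.86, 11.95 and 11.91, which met at 11.86. The pulse effect of 0.28 ± 0.079 was called (adjusted p = 0.0445), and the change of −0.19 from withdrawal to control was not (adjusted p = 0.17). Leaving out any 1 of the 6 arrays other than control replicate 3 ended the first call (adjusted p = 0.0874 to 0.335). Without control replicate 2, the lowest array, the pulse effect was 0.17 (adjusted p = 0.335) and the change to the control −0.08 (adjusted p = 0.685). Without control replicate 3, the highest control and 1 of the 4 widest arrays, the pulse effect was 0.40 (adjusted p = 0.00246) and the change to the control −0.30, which was called (adjusted p = 0.0155). The differences of −0.30 between the pulse effect on day 1 and that on either later day were not called (adjusted p = 0.598 and 0.269), and the latter was called without that array (−0.41, adjusted p = 0.0355).

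**Figure D2:**
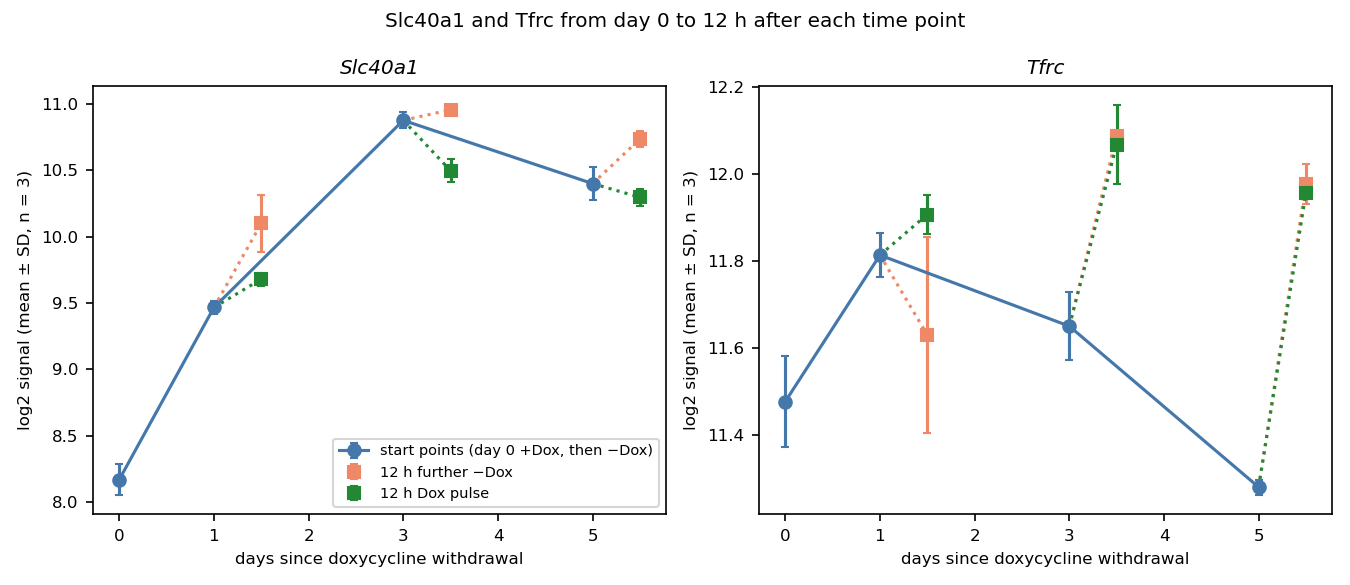
Mean log2 signal ± SD (n = 3) of Slc40a1 and Tfrc against days since Dox was withdrawn; circles are day 0 and the withdrawal days, squares the groups 12 h later without Dox or with a Dox pulse, joined to their day by dotted lines. Slc40a1 ends lower after each pulse than after 12 h without Dox, by 0.41 to 0.46, whereas both 12 h groups of Tfrc lie above their start on days 3 and 5.

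Slc11a2 (cluster 10432573), which moves ferrous iron out of the endosome, was slightly higher on all withdrawal days. Its arrays read 8.92, 8.97 and 8.72 at day 0 and lay between 9.05 and 9.17 on the 9 withdrawal arrays, with no overlap. The rises of 0.28 ± 0.080 at day 1, 0.23 at day 3 and 0.22 at day 5 were called (adjusted p = 0.0341, 0.0276 and 0.0292). All 3 calls were lost without day 0 replicate 3, its lowest array, which left changes of 0.20, 0.15 and 0.14 (adjusted p = 0.261, 0.201 and 0.209). Centring each array on its median ended them too (adjusted p = 0.0721, 0.15 and 0.161), and leaving out 1 of several other arrays also ended a call. Pulse effects were −0.18, −0.26 and 0.03 on days 1, 3 and 5, none called. Their average of −0.14 ± 0.046 was called (adjusted p = 0.0399), but the call was lost in 5 of the 10 alternatives. The value was −0.09 without the 4 widest arrays (adjusted p = 0.472), −0.07 with the interquartile range as covariate (adjusted p = 0.457) and −0.04 after quantile normalization (adjusted p = 0.578), and median centring (adjusted p = 0.0509) and a fit of only the compared groups (adjusted p = 0.0831) also ended the call. It was lost in 12 of the 18 fits without 1 array as well, at −0.14 to −0.11 (adjusted p = 0.0531 to 0.108). Those arrays were day 1 control replicate 1 and pulse replicates 1 and 2, day 3 control replicates 2 and 3 and all of its pulse replicates, and day 5 control replicates 2 and 3 and pulse replicates 2 and 3. The 3 pulsed arrays of day 3, at 8.93, 8.95 and 8.95, overlapped day 0.

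Steap3 (cluster 10357249), the endosomal ferrireductase, was not called on any withdrawal day, with changes of 0.05, −0.07 and −0.03 ± 0.064 at days 1, 3 and 5. With the pulse it was lower. On day 5 the pulsed arrays read 7.69, 7.85 and 7.75 against 8.0, 8.06 and 8.01 in the controls, without overlap. The fall of 0.26 was called (adjusted p = 0.0124), and the effects of −0.15 on day 1 and −0.05 on day 3 were not (adjusted p = 0.238 and 0.729). The average pulse effect was −0.15 ± 0.037 (adjusted p = 0.00621), and the day effects were not called different from each other. The day 5 call was lost without control replicate 2 (adjusted p = 0.0678), without pulse replicate 3 (adjusted p = 0.0542) and without the 4 widest arrays (−0.24, adjusted p = 0.363), as was the average (−0.16, adjusted p = 0.0609).

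Fth1 (cluster 10461402), the ferritin heavy chain, had the smallest spread between replicates of the 8 and its lowest signals at day 5. Its arrays read 12.49, 12.69 and 12.60 at day 0 and 12.51, 12.48 and 12.35 at day 5 of withdrawal, which overlap. The change of −0.15 ± 0.059 at day 5 was just called (adjusted p = 0.0455). The call did not hold without day 0 replicate 2 or 3 or day 5 replicate 2 or 3 (adjusted p = 0.0605 to 0.231), and after quantile normalization the change was 0.00 (adjusted p = 0.959). The lowest Fth1 signals were those of the day 5 pulse, at 12.32, 12.16 and 12.29, below the controls at 12.37, 12.39 and 12.37, yet the pulse effect of −0.12 was not called (adjusted p = 0.168). Ferritin genes have processed pseudogenes in the mouse, so probes of Fth1 and Ftl1 may not be specific to the gene, which was not tested.

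The genes of the iron regulatory proteins took different paths. Ireb2 (cluster 10585444) read 10.74, 10.87 and 10.75 at day 0 and 10.78, 10.85 and 10.82 at day 1, which overlap. It then read 11.15, 11.18 and 11.03 at day 3 and 11.05, 11.05 and 11.07 at day 5, all above both earlier groups. Ireb2 rose by 0.33 ± 0.069 at day 3 (1.26-fold, adjusted p = 0.000403) and by 0.27 at day 5 (1.20-fold, adjusted p = 0.00226), and the step from day 1 to day 3 was 0.30 (adjusted p = 0.00166). These 3 calls held in every alternative run and without each array. Pulse effects of −0.04, −0.11 and −0.15 were not called, nor was their average of −0.10 (adjusted p = 0.0706).

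Aco1 (cluster 10503966), whose protein is a cytosolic aconitase when it holds an iron-sulfur cluster and an iron regulatory protein when it does not, was called in none of the 15 comparisons. Its arrays ran from 9.50 to 10.02. Against day 0 its changes were 0.07 ± 0.070, 0.16 and 0.16 at days 1, 3 and 5, with 95% intervals of −0.07 to 0.21, 0.01 to 0.30 and 0.01 to 0.30 (adjusted p = 0.701, 0.0888 and 0.0711). Between withdrawal arrays and 12 h controls, 21.8%, 18.2% and 16.1% of all tested clusters did not overlap on days 1, 3 and 5. For Aco1 the 12 h controls lay above the withdrawal arrays on each day without overlap, by 0.23, 0.16 and 0.18, with adjusted p = 0.051, 0.317 and 0.147. Without day 1 control replicate 2 the first of these was 0.29 and called (adjusted p = 0.0384), and without day 5 control replicate 1 the last was 0.24 and called (adjusted p = 0.0346). Against day 0, the withdrawal change at day 3 was 0.20 and called without day 3 withdrawal replicate 3 (adjusted p = 0.047). The withdrawal changes at days 3 and 5 were each called in 3 of the 10 alternatives. The pulse effect on day 3 was −0.21 (adjusted p = 0.184). The average pulse effect over the 3 days was −0.11 (adjusted p = 0.0623). This average was called in 2 of the 10 alternatives and in 4 of the 18 fits without 1 array.

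Flvcr1 (cluster 10361075), the heme exporter, was called higher at day 5 of withdrawal. Its arrays read 8.19, 8.23 and 8.21 at day 0 and 8.41, 8.62 and 8.52 at day 5, without overlap. The rise of 0.31 ± 0.063 at day 5 was called (1.24-fold, adjusted p = 0.000215) and the changes of 0.11 and 0.15 at days 1 and 3 were not (adjusted p = 0.41 and 0.0718), nor was the step of 0.16 from day 3 to day 5 (adjusted p = 0.107). Over the next 12 h without Dox the mean went from 8.52 to 8.34 on day 5, without overlap. This change of −0.18 was not called (adjusted p = 0.108), but it was in 2 of 11 alternatives. The day 5 pulse mean was 8.36. On days 1 and 3 the 12 h changes were 0.13 and 0.04, not called. Against day 0, the withdrawal change at day 3 was 0.19 and called without day 3 withdrawal replicate 3 (adjusted p = 0.0312). Pulse effects were −0.05, −0.14 and 0.03, none called. The other Flvcr1 cluster (10361065, mean 8.01 against 8.36) changed by 0.26 ± 0.086, 0.20 and 0.23 at days 1, 3 and 5 (adjusted p = 0.0726, 0.0782 and 0.0328), about as much at day 1 as at day 5. Under the pulse it fell by 0.49 on day 3 (adjusted p = 0.0281), against −0.14 for the main cluster (adjusted p = 0.294). The clusters of the gene thus disagree on that day.

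The counts of called members are set here against the share of all tested clusters that were called. At day 1, 3 of the 8 genes were called, all higher, while 6.51% of the tested clusters were called and 3.49% were called higher. At day 3, 3 of 8 were called, all higher, where 33.8% of all clusters were called and 19.6% were called higher, and at day 5, 5 of 8 were called, 4 higher and 1 lower, where 42.5% were called, 23.8% higher and 18.8% lower. At day 3 the share called is near the background, and no test over the members was made on any day. The genes were chosen with earlier results of these data known. Their mean signals lie at percentiles from 57 (Steap3) to 98 (Fth1) of all tested clusters, so the background is not of equally bright clusters. A share above the background is therefore not read as a property of the set. From day 1 to day 3, 2 of 8 were called, both higher (22.9% of all clusters called, 13.2% higher), and from day 3 to day 5, 2 of 8, both lower (12.3% called, 4.75% lower). The median change of the 8 genes was 0.09, 0.16 and 0.19 at days 1, 3 and 5, against 0.02, 0.02 and −0.01 over all clusters.

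For the pulse, 2 of 8 genes were called on day 1, 1 higher and 1 lower (3.75% of all clusters called). On day 3 Slc40a1 was 1 of only 9 clusters called on the array (0.0385%, and 0.0342% lower). On day 5, 2 of 8 were called, both lower (12.2% of all, 7.1% lower), and for the average of the 3 days 3 of 8, all lower (20.8% of all, 14% lower). No member was called in a difference between pulse days, for which 0.00855% (day 3 minus day 1), 0.111% (day 5 minus day 1) and 0.936% (day 5 minus day 3) of all clusters were called by limma. At an unadjusted p under 0.05 these differences held 1, 1 and 3 members. Over the 12 h without Dox, 1, 1 and 2 of the 8 genes were called on days 1, 3 and 5, all higher (6.25%, 1.69% and 3.31% of all clusters called, and 5.02%, 1.29% and 2.32% called higher). The median pulse effect of the 8 genes was −0.07, −0.13 and −0.07 on days 1, 3 and 5, against 0.01, −0.01 and 0.02 over all clusters.

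**Figure D3:**
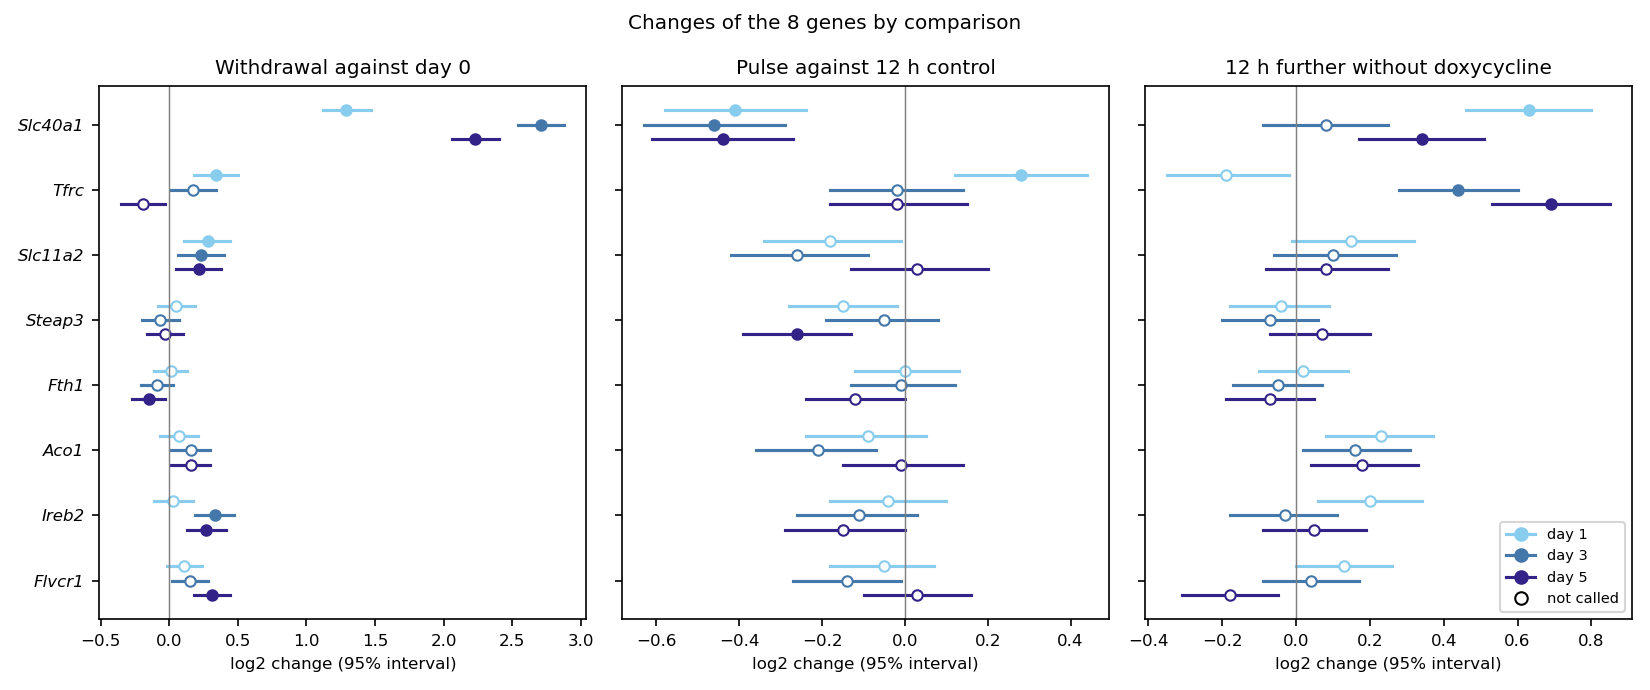
Log2 change with its 95% interval (horizontal axes, of different spans) of each gene in 3 kinds of comparison; colours are days 1, 3 and 5, filled points are called (adjusted p under 0.05) and open points are not. Slc40a1 stands apart in the left panel, at 1.29, 2.71 and 2.23, and below 0 on all days in the middle panel, and Tfrc has the largest called rises of days 3 and 5 in the right panel.

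Over the 10 group means, the course of Slc40a1 was most like that of Ireb2 among the other members (Pearson r = 0.90), and Slc11a2 was most like Aco1 (r = 0.80). Tfrc had no r above 0.45 with another member. These r values describe 10 groups that were normalized together and are given with no test. Among the 6279 genes whose group means spanned at least 0.5, those most like Slc40a1 were Trim12c (r = 0.983), Gbp2b (0.982) and Arid2 (0.978). Trim12c and Gbp2b belong to multigene families with close copies, so their probes may not be specific. For Tfrc they were Pfkl, the liver-type phosphofructokinase of glycolysis (0.846), 1700001L05Rik (0.83) and Acsl5, an acyl-CoA synthetase (0.818). For Fth1 they were Bzw2, Zfp980 and Tomm34 (0.972 to 0.986), for Ireb2 they were Slc38a9, Poc1b and Sh3bgrl2 (0.968 to 0.971), and for Aco1 they were Ttll5, Csk and Plekhj1 (0.94 to 0.947). For Slc11a2 they were Trp53bp1, Slc35b4 and Lpcat4 (0.911 to 0.917), and for Flvcr1 they were Usp17la, of a family of near-identical copies, Cnnm3 and Poldip2 (0.884 to 0.904). For Steap3 they were Zfp958, Higd2a and Zfp809 (0.787 to 0.876). The r of the closest gene was lowest for Tfrc (Pfkl, 0.846).

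The wider iron and heme pathway was read from a list of 63 further genes. At day 5 of withdrawal 38 of the 63 were called, 20 higher and 18 lower, which is 60.3% against 42.5% of all tested clusters, with a median change of 0.03. The list takes the brightest cluster of each gene, and the background also holds dimmer clusters and those with several symbols. Here and below, the shares are thus not of like clusters, and the part of brightness in them was not tested. The largest rises were those of the metal transporter Slc39a8 (1.29 ± 0.12, from 6.90 at day 0 to 8.19), the Flvcr1 relative Flvcr2 (1.26 ± 0.10, from 7.24 to 8.50), the biliverdin reductase Blvrb (1.04 ± 0.11, from 8.51 to 9.55), the heme synthesis enzyme Cpox (0.62) and Fbxl5, the ubiquitin ligase subunit that marks iron regulatory protein for degradation in iron-replete cells (0.56). The largest falls were those of Hmox1, which breaks down heme (−0.78 ± 0.12, from 10.01 to 9.23), the metal transporter Slc39a14 (−0.75 ± 0.089, from 8.84 to 8.09) and the hepcidin gene Hamp2 (−0.60). Adjusted p-values of Slc39a8, Flvcr2, Blvrb, Hmox1 and Slc39a14 were 6.37e-10, 8.54e-11, 8.66e-09, 4.01e-06 and 9.56e-08. The hepcidin genes Hamp and Hamp2 are close copies, and their probes may not be specific.

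By role, called genes went both ways at day 5, against a background of 23.8% higher and 18.8% lower over the 23385 clusters. Of 9 measured uptake and reduction genes 2 were higher and 5 lower, of 8 heme synthesis genes 4 were higher and 1 lower, and of 14 genes of heme transport and breakdown 6 were higher and 3 lower. Of 14 genes of mitochondrial iron and iron-sulfur clusters 2 were higher and 6 lower, of 10 regulators 3 were higher and 2 lower, of 5 storage genes 1 each way, and of 3 export and oxidation genes 2 were higher. These 2 were Cp (0.24) and Heph (0.32). Their group means were at most 5.75 and 6.60, under the 40th percentile of mean signal (7.12), so both were dim. Ftl1, the ferritin light chain, changed by 0.07 (adjusted p = 0.359). Earlier, 4 of the 63 were called at day 1, all lower, which is 6.35% against 6.51% of all clusters. They were Pgrmc1 (−0.59), Hebp1 (−0.37), Iscu (−0.37) and Tmem14c (−0.32). At day 3, 29 were called, 14 higher and 15 lower, which is 46% against 33.8%, and the largest changes were those of Slc39a8 (1.05), Hmox1 (−0.94), Pgrmc1 (−0.87) and Flvcr2 (0.70).

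Under the pulse, 13 of the 63 listed genes were called for the average of the 3 days, 3 higher and 10 lower, which is 20.6% against 20.8% of all clusters. Blvrb (−0.38), Slc39a8 (−0.29), Flvcr2 (−0.25), Fbxl5 (−0.18) and the mitochondrial iron carrier Slc25a37 (−0.17) were lower, and Hamp (0.30), Hmox1 (0.20) and the heme-binding Pgrmc1 (0.20) were higher. By day, limma called 4, 0 and 9 genes on days 1, 3 and 5, where 3.75%, 0.0385% and 12.2% of all clusters were called, and on day 3 9 genes had an unadjusted p under 0.05. On day 1 they were Blvrb (−0.50), Pgrmc1 (0.38), Mcoln1 (−0.24) and Ftl1 (−0.22), and on day 5 the largest were Hamp (0.78), Blvrb (−0.57), Hscb (−0.40) and Alas2 (0.39). Group means lay between 4.77 and 5.56 for Hamp and at 6.89 or below for Alas2, under the 40th percentile of mean signal (7.12), so both were dim.

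Over the 12 h without Dox, 8, 2 and 5 of the 63 listed genes were called on days 1, 3 and 5, which is 12.7%, 3.17% and 7.94% against 6.25%, 1.69% and 3.31% of all clusters. On day 1, 7 were higher and 1 lower, and the largest changes were those of Blvrb (0.56), Hmox1 (−0.48), the other biliverdin reductase gene Blvra (0.38) and Flvcr2 (0.35). Hmox1 was thus called lower on day 1 (adjusted p = 0.0158) and higher on day 5 (adjusted p = 0.013). On day 5, the day of the largest rise of Tfrc, the called genes were all higher and included Hmox1 (0.52), Urod (0.47), Hebp1 (0.37) and the lysosomal channel Mcoln1 (0.26). On day 3 they were Slc46a1, a transporter of folate and heme (0.33), and Mcoln1 (0.31).

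**Figure D4:**
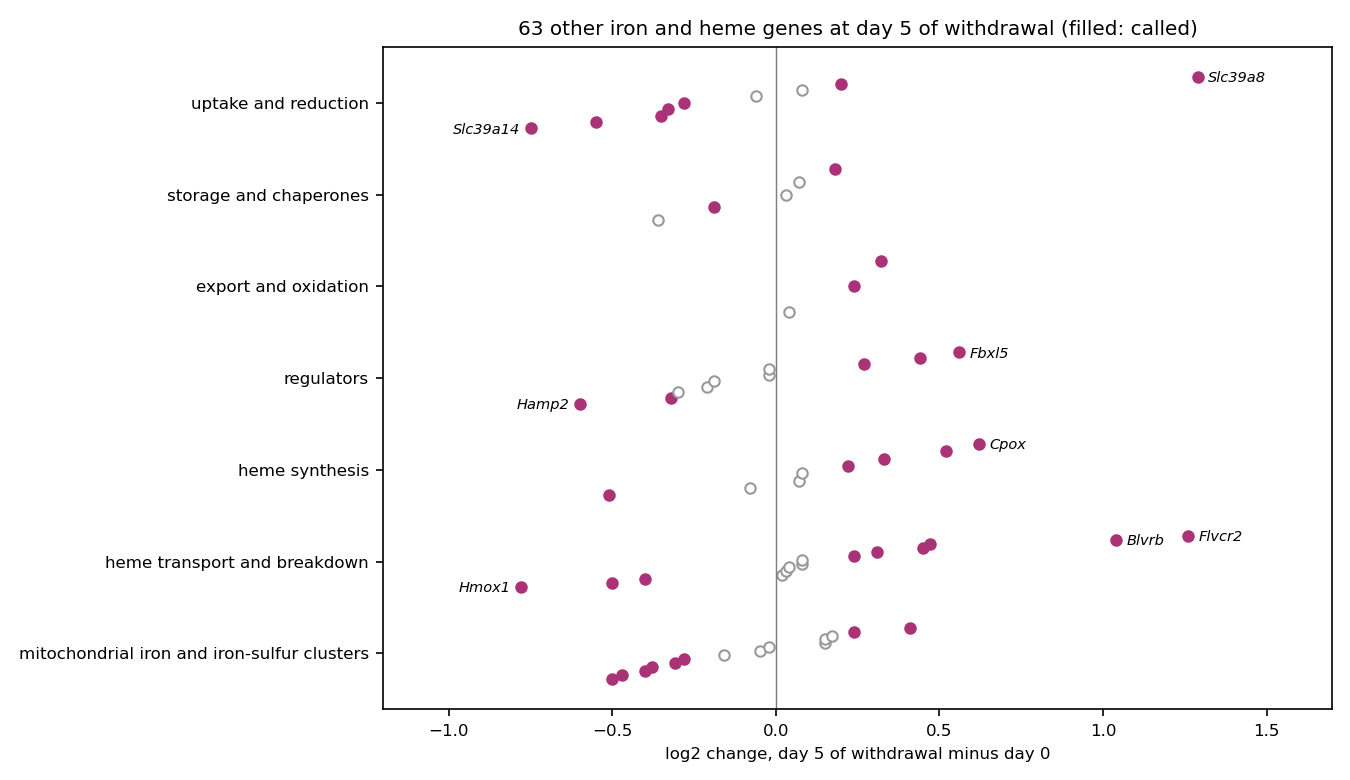
Log2 change from day 0 to day 5 of withdrawal (horizontal axis) of the 63 measured genes of the wider list, in rows by role; filled points are called, and the 8 called genes with the largest changes are named. Called genes lie on both sides of 0 in all roles but export and oxidation, with Slc39a8, Flvcr2 and Blvrb above 1.

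Several facts of the series bear on these values. Nanog checks the labels: its signal was at least 10.70 on the 12 arrays with Dox and at most 10.57 on the 18 without. Median signals of arrays ran from 7.51 to 7.61 and interquartile ranges from 2.39 to 2.94, and the 4 widest arrays (day 1 control replicate 3, day 3 control replicate 2, day 5 control replicates 2 and 3) were all 12 h controls. Without them, 55 clusters rather than 2860 were called for the day 5 pulse and 496 rather than 4860 for the average pulse. All 8 embryonic stem cell markers were detected at day 0, with Pou5f1 at 12.35, and 7 of them were called lower at day 5. Markers of other cells moved over the same days as Slc40a1. The summed linear signal of 15 extraembryonic endoderm markers was 3300 to 3470 at day 0, 3500 to 3540 at day 1, 4270 to 4560 at day 3 and 6220 to 6370 at day 5, with 1, 5 and 8 of 15 called higher and the defining Afp and Ttr dim in every group. The brightest endoderm marker at day 5 was Sparc (11.16). In the pulse none of the endoderm markers was called on any single day, and 2 were called lower for the average. The sum of 10 trophectoderm markers was 3380 to 3490 at day 0, 6440 to 6870 at day 3 and 13000 to 14500 at day 5, with Elf5 dim throughout. At day 5, 6 of the 10 were called higher and 0 lower. The brightest were the keratins Krt7, Krt8 and Krt18 (11.11, 12.19 and 12.26), which weigh most in a linear sum. Eomes, Hand1, Tfap2c and Elf5 were not called at day 5 (0.24, −0.07, −0.16 and 0.04). The trophectoderm sum was lower in the pulse than in the 12 h controls on day 1 (3700 to 3850 against 4010 to 4110) and day 3 (8070 to 8600 against 8930 to 9510) and higher on day 5 (19700 to 20000 against 16000 to 18500), each without overlap. The sum of 14 feeder fibroblast markers was 6920 to 7230 at day 0 and highest in the day 3 controls, as was Slc40a1, at 8420 to 9290 against 7840 to 8370 in the day 3 pulse, without overlap. On day 1 it was 6490 to 6960 in the controls and 6820 to 7020 in the pulse, and on day 5 6030 to 6820 and 6300 to 7450, with Postn, Lum and Dcn dim throughout. The brightest feeder markers at day 0 were Vim (11.54) and Acta2 (10.64). At day 5 of withdrawal Vim was called lower (−0.59, adjusted p = 1.45e-06) and Acta2 higher (0.71, adjusted p = 1.95e-06). Of the 8 macrophage markers 6 were dim in every group. Those not dim were Cd68 and Tyrobp. Cd68 was called lower at day 1 (−0.32, adjusted p = 0.0246) and higher at day 5 (0.66, adjusted p = 6.72e-07). Tyrobp was called neither at day 1 (0.08, adjusted p = 0.864) nor at day 5 (−0.19, adjusted p = 0.33). Of 7 erythroid markers 5 were measured, with Klf1 and Alas2 dim throughout, and at day 5, 3 were called lower and 0 higher. The part of other cells in the results was not tested, and in bulk RNA fewer cells of a type and less RNA per cell cannot be told apart.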

How the data were processed

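Total RNA was measured on 30 arrays (Affymetrix, Mouse Gene 1.0 ST), 3 for each of 10 groups. Per the submitters' processing notes, the authors used RMA (Affymetrix Expression Console), and the deposited values are log2 signals per transcript cluster. RMA equalizes the distributions of probe signals between arrays before it summarizes them, so a shift of all genes together is not visible. The deposited cluster values still differed in spread between arrays, with interquartile ranges from 2.39 to 2.94. Versions and genome build are not given in the sources used here. Arrays have no read depth, and 3 arrays a group limit the precision. Of 28815 clusters, 21780 had 1 gene symbol in the platform table, 1605 several and 5430 none, and the 23385 with a symbol were tested. No 2 replicate arrays were identical.

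A single limma fit (version 3.58.1, R 4.3.3) of all arrays gave each group its own mean without covariates, and 15 contrasts were tested with Benjamini-Hochberg adjustment. The script was tested on simulated data. The 8 genes are given in all contrasts. Of the pathway list, up to 8 called genes with the largest change are named for day 5 of withdrawal and the average pulse, and up to 4 for other contrasts; genes given as not called, and Ftl1 and Pou5f1, were added after their values were seen. The genes of most like course are the 3 with the highest r. The members, lists and rules were chosen with earlier results of these data known. The alternatives were trend and robust moderation, array weights, only the compared groups, median centring, quantile normalization, clusters without a symbol added, the dimmest 40% of clusters removed, a replicate block, the array interquartile range as covariate, the 4 widest arrays left out, the lower Flvcr1 cluster and each array left out.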

Additional observations from a re-analysis of the deposited data

Results flagged for a closer look

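The pulse effect of the lower Flvcr1 cluster (10361065) differed between days. It was −0.49 on day 3 and 0.09 on day 5, a difference of 0.58 ± 0.12 (adjusted p = 0.0295, limma). The difference for the main Flvcr1 cluster was 0.17 (adjusted p = 0.341). The pulse effect of Slc46a1, a transporter of folate and heme on the wider list, also differed between these days, by 0.41 ± 0.10 (adjusted p = 0.047). Its group means were 8.59 in the controls and 8.40 in the pulsed arrays of day 3, and 8.63 and 8.86 on day 5. No cause was tested. Groups of 3 arrays are too small for a test of single outlying arrays.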

How the results depend on the processing

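The direction of Slc40a1 under withdrawal and under the pulse, and its withdrawal calls, held under every alternative run. Its pulse changes ranged from −0.41 to −0.28, from −0.46 to −0.42 and from −0.46 to −0.36 on days 1, 3 and 5, and only its average was called in each setting (adjusted p up to 0.000412). For single genes and counts together, 1135 alternative values kept their side of the threshold, 30 lost it, 49 gained it and 1 reversed, which is the day 5 withdrawal of Fth1 at 0.00 after quantile normalization. With 1 array left out these counts were 899, 45 and 16, with 0 reversed. A value called in neither fit counts as kept. The count of called members moved as follows, with causes not tested. For day 3 of withdrawal (3) it was 6 with array weights, 6 with quantile normalization and 5 with the interquartile range as covariate. For the pulse it was 0 on all 3 days with only the compared groups, where fewer arrays estimate the spread. For the day 1 pulse (2) it was 1 with median centring, with clusters without a symbol and with the replicate block. For the day 3 pulse (1) it was 3 with array weights, 0 with median centring, 0 without the 4 widest arrays and 2 with the lower Flvcr1 cluster. Without those arrays it was 0 for the day 5 pulse and 1 for the average, which was 6 with array weights and 5 without dim clusters. Between pulse days the count of 0 became 1 for day 3 minus day 1 and for day 5 minus day 1 with array weights, and 1 for day 5 minus day 3 with the lower Flvcr1 cluster. Over 12 h without Dox on day 1 (1) it was 2 with trend and robust moderation, array weights, quantile normalization, the covariate or without the 4 widest arrays, and 3 without dim clusters. On day 3 (1) it was 0 with only the compared groups, and on day 5 (2) it was 4 with array weights, 1 with only the compared groups and 1 without the 4 widest arrays. With 1 array left out the count was 1 to 3, 2 to 5 and 3 to 5 at days 1, 3 and 5 of withdrawal, 2 and 2 to 3 for the steps, 1 to 2, 0 and 1 to 3 for the pulses, 2 to 5 for their average, 0, 0 to 1 and 0 for the differences, and 1 to 2, 1 and 1 to 3 over 12 h without Dox.

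Over all clusters, median centring changed the split of calls from 4580 higher and 3334 lower to 3270 and 4613 at day 3 and from 5558 and 4387 to 4440 and 6119 at day 5, where the median change was −0.078. The replicate numbers share only a number: correlations of same-numbered deviations ran from −0.72 to 0.40 over 11 comparisons, and in none were all above 0.1. With the replicate block Tfrc in the day 1 pulse (0.28, adjusted p = 0.0612) and Fth1 at day 5 (−0.15, adjusted p = 0.0562) were no longer called, and no other member call changed.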
